A study of Mus musculus with 6 samples.

Results

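The MAX network is a set of transcription factor genes whose products pair with each other and compete for the same DNA motif. Its 10 genes considered here are Myc, Mycn, Max, Mxd1, Mxd3, Mxd4, Mxi1, Mnt, Mga and Mlx, out of 22180 genes tested. They were chosen by name as MYC family genes and partners of MAX or of the related protein MLX, and each was read from an array row that the platform annotation assigns to a single gene, the row with the highest mean where a gene had several. All 10 were measured. Expression was compared in mouse embryonic stem cells (ESCs) that carry a Dgcr8 knockout (Dgcr8-/-) in every sample, a deletion known to stop the making of canonical miRNAs. The control group (3 arrays) carried a control hairpin, and the other group (3 arrays) carried sh-miR-302, a hairpin described as giving mimics of miR-302. Per the design text, the 3 samples of each group are biologically independent. The sources used here do not say which miR-302 family member was expressed, what the culture medium was or how many cell clones were used.

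MYC and MYCN bind DNA as dimers with MAX and raise the transcription of genes for growth, nucleotide and ribosome production. The MXD proteins, MNT and MGA also pair with MAX and mostly repress the same genes, through SIN3 and histone deacetylases or, for MGA, through a Polycomb-type complex. MLX pairs with some MXD proteins and with the glucose-responsive factors MondoA (gene Mlxip) and ChREBP (gene Mlxipl). In mouse ESCs, Myc and Mycn are both known for supporting self-renewal, and the network's activity is known to differ between growing and differentiating cells. miR-302 belongs to the miRNA families that are most abundant in pluripotent cells.

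The treated cells differ from control by miR-302, and for that reason the 3p strands of miR-302b, miR-302c and miR-302d are shown as RefSeq gives them for mouse (GRCm38.p6, + strand), 5′ to 3′; that of miR-302a is not shown. They are printed with bases 2 to 8, the seed that pairs with target transcripts, in capitals.
mmu-miR-302b-3p (chr3:127545275-127545297): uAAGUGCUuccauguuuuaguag
mmu-miR-302c-3p (chr3:127545406-127545427): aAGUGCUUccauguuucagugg
mmu-miR-302d-3p (chr3:127545665-127545687): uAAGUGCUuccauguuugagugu
The b and d strands share the seed AAGUGCU. The c strand is listed with its 5′ end 1 base further in, so that AAGUGCU starts at base 1 and bases 2 to 8 read AGUGCUU.

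Values are log2 expression levels, so that a difference of 1 is a 2-fold change, and they are compared between arrays for the same gene only. A gene is called where limma's adjusted p is under 0.05 over all 22180 genes, and 16.4% of these genes were called (7.18% higher with miR-302 and 9.25% lower). Among genes at or above the median level, where all 10 network genes lie, 26.7% were called. One array, miR-302 replicate 1, differed from its group: its differences from the other 2 had an SD of 0.323 over genes, against 0.175 to 0.223 for the other 5 arrays. Of 10 ESC markers, none was called by limma (4 had an unadjusted p under 0.05, and an unmoderated test called 1). Without miR-302 replicate 1, 2 of them were lower, where 24.3% of all genes were called. When lower-level genes were dropped, with array weights, or with a trend and robust prior, 2 or 3 were lower. In those fits 38.7%, 25.3% and 20.7% of the genes tested were called. Pou5f1 and Nanog were at 9.22 to 9.48 and 12.65 to 12.92 on all 6 arrays, and their groups overlapped. For 5 of the 10 markers the groups did not overlap, as for 35.8% of all genes. The miR-302 arrays lay below the controls for Sox2, Zfp42 and Tfcp2l1, and above them for Klf4 and Utf1. The change was negative for 7 of the 10 and positive for 3, with a median of −0.12. Dgcr8 shares its row with another gene and was not analysed here.

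Within the network, Myc rose and Mxd3 fell with miR-302, and the other 8 genes were not called. The 2 calls among 10 genes compare with the 16.4% called over all genes and the 26.7% among genes of at least median level. The groups did not overlap for 5 of the 10 (Myc, Max, Mxd3, Mnt and Mlx), where 35.8% of all genes had groups that did not overlap. The median change of the 10 genes was −0.05 on the log2 scale, and that of all genes was 0.01.

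Myc, which encodes the transcription activator c-MYC, had the largest change of the 10 genes. Its level was 7.36, 7.46 and 7.63 in the control arrays and 8.52, 9.0 and 9.18 in miR-302 replicates 1, 2 and 3. Every miR-302 array lay above every control array, and replicate 1 was the lowest of its group. The mean went from 7.48 ± 0.14 (SD, n = 3) to 8.90 ± 0.34, a log2 change of 1.42 ± 0.17 (SE), which is 2.67-fold higher (limma, adjusted p = 0.00373). The 95% interval of the change ran from 1.0 to 1.83. Leaving out 1 array at a time gave changes from 1.28 to 1.61, with adjusted p from 0.000474 to 0.0229, and the largest change was the one without miR-302 replicate 1.

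**Figure D1:**
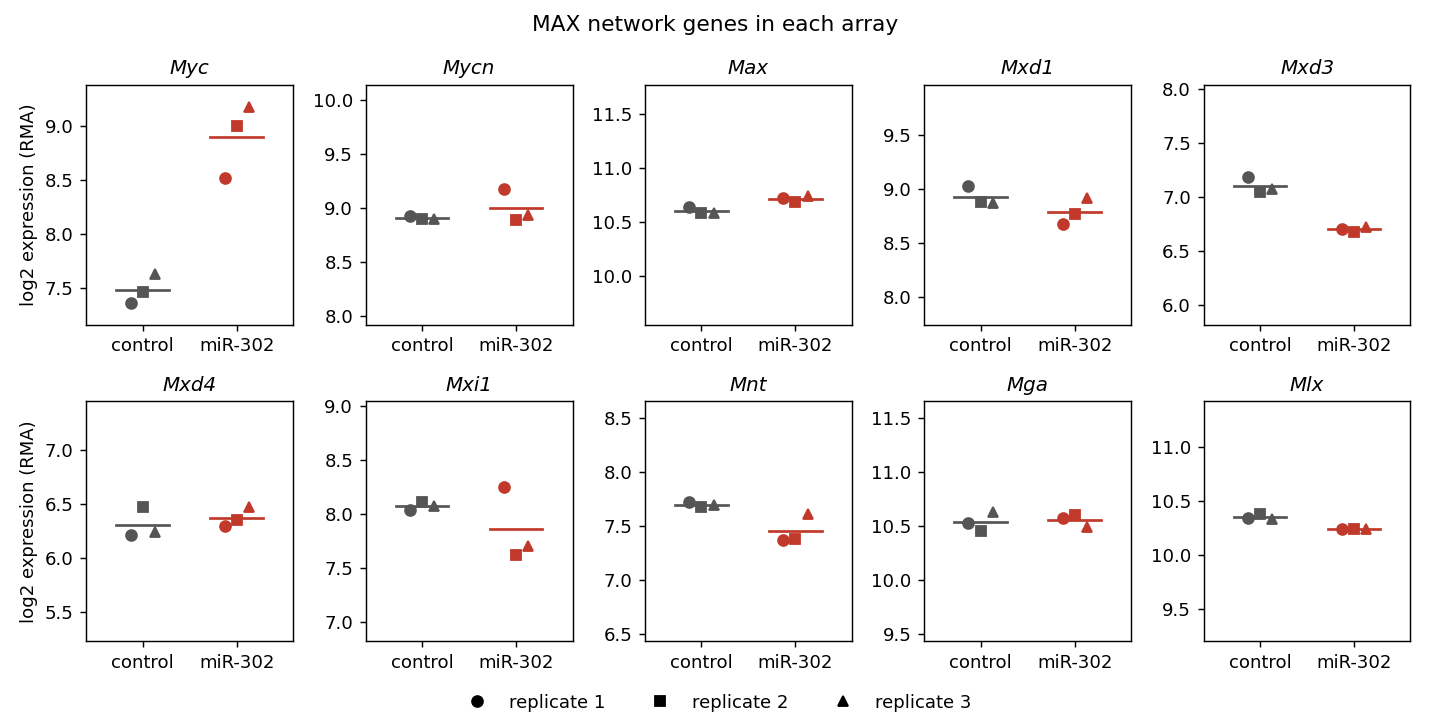
Log2 expression (vertical axis, RMA values) of the 10 network genes in each of the 3 control and 3 miR-302 arrays. Points are arrays, with shapes for replicate numbers, lines are group means, and all panels span the same number of log2 units. Myc goes from a mean of 7.48 to 8.90 and Mxd3 from 7.10 to 6.70, and in Mycn and Mxi1 the miR-302 replicate 1 array lies above the other arrays.

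Markers of other cell types were compared between the same groups. Of 10 trophectoderm markers, genes of the outer layer of the blastocyst that forms the placenta, 7 were higher and none lower, where 7.18% of all genes were called higher. Their mean log2 level was 6.17 to 6.30 in the control arrays and 7.32, 7.98 and 7.98 in miR-302 replicates 1, 2 and 3. Replicate 1 was thus the lowest of its group here, as for Myc and for the primitive endoderm markers below. The gap was widest for Krt18, with 9.86 in replicate 1 against 11.82 and 11.68. Gata3 was instead highest in replicate 1, with 7.78 against 7.45 and 7.68. The lowest of these markers, the trophoblast gene Tpbpa, was at 3.87 to 4.08 in control and 4.01 to 4.43 in miR-302 arrays. Of 9 primitive endoderm markers 4 were higher and 1 lower, where 7.18% of all genes were called higher and 9.25% lower. The mean levels of this list were 5.68 to 5.78 in control and 6.11, 6.22 and 6.25 in miR-302 replicates 1, 2 and 3. At or above the median level lay 4 of the 9, and the called markers Pdgfra and Dab2 lay below it. With 1 array left out at a time, Foxa2 lost its call in all 6 fits, and Dab2 and Gata4 in 5. Gata6, Sox17, Sox7 and Col4a1 were not called. Of 10 fibroblast markers none was higher and 1 was lower, where 9.25% of all genes were called lower. The mean levels of the fibroblast list, 5.90 to 5.97 in control and 5.92 to 6.04 in miR-302 arrays, overlapped. Without miR-302 replicate 1 the counts were 10 higher for trophectoderm, and 5 higher and 1 lower for primitive endoderm markers. For fibroblast markers they were 1 higher and 3 lower, and 24.3% of all genes were called in that fit. Without any 1 of the other arrays, 6 or 7 trophectoderm, 2 primitive endoderm and 0 or 1 fibroblast markers were higher, and none was lower. In those fits 7.79% to 9.36% of all genes were called. The part of these cell type markers in the change of Myc was not tested. In such bulk samples, a change in the number of cells of a type and a change in RNA per cell cannot be told apart.

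Mycn, the paralogue that encodes N-MYC, was not called. It was at 8.89, 8.89 and 8.92 in the control arrays and at 9.17, 8.88 and 8.93 in miR-302 replicates 1, 2 and 3. Replicates 2 and 3 lay beside the controls, and replicate 1 lay above all other arrays. The log2 change was 0.09 ± 0.09 (SE; adjusted p = 0.563), with a 95% interval from −0.13 to 0.31, and it was 0.01 without miR-302 replicate 1. Within each array, Myc minus Mycn was −1.56, −1.43 and −1.26 in control and −0.65, 0.12 and 0.25 in miR-302 replicates 1, 2 and 3, which shows unequal change of the pair and not their relative levels. This difference moved by 1.32 between the groups, which did not overlap (exact permutation test, two-sided p = 0.1, the smallest that 3 against 3 arrays can give). The groups of Myc alone did not overlap, and Mycn spanned only 8.88 to 9.17. The outcome of this test was therefore set by those values, and it adds no support of its own.

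Max encodes the common partner with which MYC, MXD, MNT and MGA proteins form dimers. It was at 10.58, 10.58 and 10.64 in the control arrays and at 10.69 to 10.74 in the miR-302 arrays. The groups did not overlap, but the change of 0.12 ± 0.06 (SE) on the log2 scale was not called (adjusted p = 0.281, 95% interval −0.04 to 0.27).

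The 4 MXD genes encode repressors that replace MYC at MAX, and several of them are known for rising as cells leave the cycle, while Mxd3 is known for its expression in dividing cells. Mxd3 was at 7.18, 7.04 and 7.07 in the control arrays and at 6.70, 6.67 and 6.72 in the miR-302 arrays, so that the miR-302 arrays lay close together and below all controls. The log2 change was −0.40 ± 0.07 (SE), or 1.32-fold lower (adjusted p = 0.0119). Without control hairpin replicate 1, the highest control array, the change was −0.36 and the call was lost (adjusted p = 0.0513). In RefSeq the span of Mxd3 overlaps that of the mitochondrial lipid transfer gene Prelid1, which changed by 0.15 ± 0.07 (SE) and was not called (adjusted p = 0.233).

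The other MXD genes were not called. Mxd1 was at 8.87 to 9.03 in control and 8.68 to 8.92 in miR-302 arrays, and its groups overlapped (log2 change −0.14 ± 0.09 SE, adjusted p = 0.373). Mxd4 was at 6.21 to 6.47 and 6.30 to 6.47 (log2 change 0.07 ± 0.10 SE, adjusted p = 0.705). Mxi1, which encodes the repressor also named MXD2, was at 8.04, 8.11 and 8.08 in control and at 8.25, 7.62 and 7.71 in miR-302 replicates 1, 2 and 3. Replicate 1 lay above the controls, and replicates 2 and 3 lay below them. The change of Mxi1 was −0.22 ± 0.16 (SE; adjusted p = 0.436) with all arrays, and −0.41 without miR-302 replicate 1, where it passed the test (adjusted p = 0.00870). A further row of Mxi1 also had replicate 1 above replicates 2 and 3, with 6.04 to 6.15 in control and 6.12, 5.84 and 5.75 in miR-302 replicates 1, 2 and 3.

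Mnt, which encodes a repressor present in both resting and dividing cells, was at 7.68, 7.70 and 7.72 in control and at 7.37, 7.38 and 7.61 in the miR-302 arrays. All 3 miR-302 arrays lay below the controls. The change of −0.25 ± 0.09 (SE) was not called (adjusted p = 0.105), and it passed when the test was run on the 11090 genes of at least median level alone (adjusted p = 0.0445), where 38.7% of genes were called. Mga, the large MAX partner of the Polycomb-type complex PRC1.6, was at 10.46 to 10.63 in control and 10.49 to 10.60 in miR-302 arrays. Its log2 change was 0.02 ± 0.08 (SE; adjusted p = 0.918), with a 95% interval from −0.17 to 0.20. Mlx was at 10.33, 10.34 and 10.38 in control and at 10.24 in each of the 3 miR-302 arrays. The groups of Mlx did not overlap, and the change of −0.11 ± 0.06 (SE) was not called by limma's moderated test (adjusted p = 0.296). An unmoderated test, which takes the spread from this gene alone, called it (adjusted p = 0.0307), as it did 10.6% of all genes. In RefSeq the span of Mlx overlaps that of the recombination gene Psmc3ip, which changed by 0.06 ± 0.10 (SE) and was not called (adjusted p = 0.723).

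**Figure D2:**
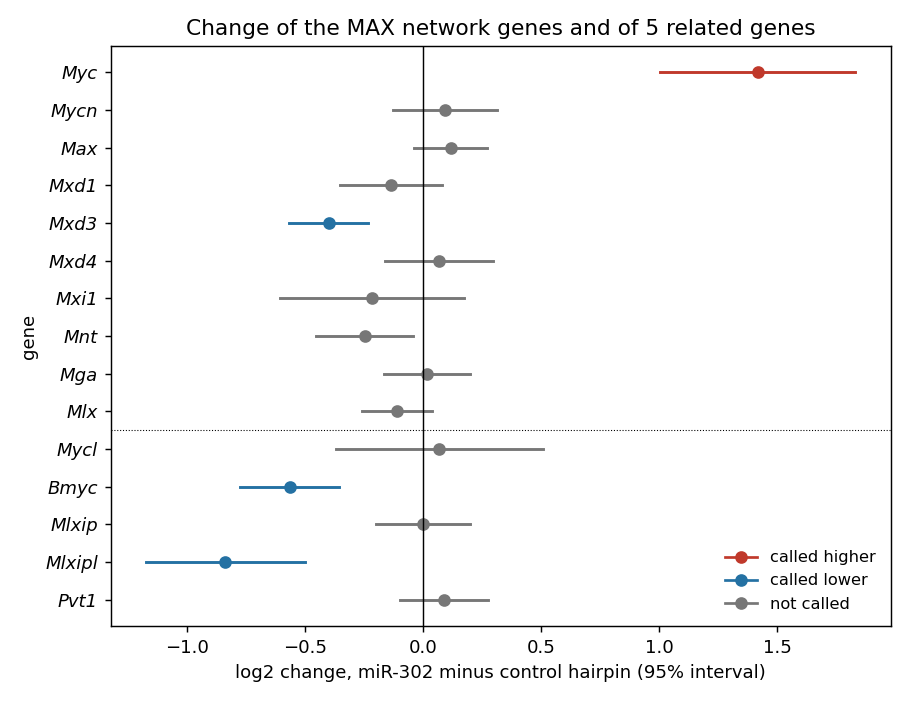
Log2 change with miR-302 (horizontal axis, miR-302 minus control hairpin) of the 10 network genes and, below the dotted line, of 5 related genes. Points are limma estimates from 3 against 3 arrays and bars their unadjusted 95% intervals, coloured by call. Myc is the called gene to the right of 0, and Mxd3, Bmyc and Mlxipl are called to the left; the interval of Mnt also leaves out 0, but its adjusted p was 0.105.

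Each array was left out in turn. These fits have fewer arrays to test with, so a lost call alone does not show that a value rests on the array left out. Myc was called in all 6 such fits and Mxd3 in 5 of 6. Mxi1 was called in 1 of them, and the other 7 network genes in none. Without miR-302 replicate 1, 1 network gene was higher (Myc) and 2 were lower (Mxd3 and Mxi1), where 24.3% of all genes were called. Without control replicate 1, 2 or 3 the share of all genes called was 7.79%, 8.03% or 7.86%, and without miR-302 replicate 2 or 3 it was 9.36% or 8.75%.

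**Figure D3:**
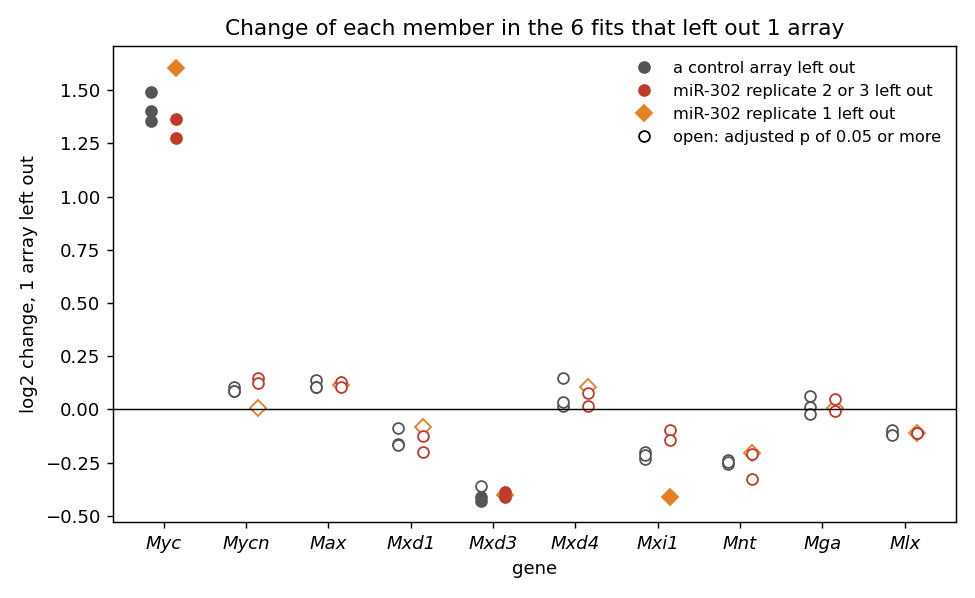
Log2 change (vertical axis, miR-302 minus control hairpin) of each network gene in the 6 fits that left out 1 array. Filled symbols have an adjusted p under 0.05, and the diamond is the fit without miR-302 replicate 1. Myc stays between 1.28 and 1.61, and Mxi1 moves to −0.41 without that array.

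The dimers of this network bind the E-box CACGTG, which reads the same on both strands. It was looked for in RefSeq promoter windows of 300 bases (250 before to 50 after the start, GRCm38.p6), which were matched for 9 of the 10 genes. No window was matched for Myc, so its promoter was not searched. Max, Mxd4, Mnt and Mlx had at least 1 window with CACGTG, which is 4 of 9 genes, against 8.09% of 27025 genes in the table. These matches are shown in windows of 30 bases to show where the network's own motif lies in its members, with CACGTG in capitals and read along the gene's strand.
Max (chr12:76962234-76962263, − strand): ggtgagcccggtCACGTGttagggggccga
Mxd4 (chr5:34187912-34187941, − strand): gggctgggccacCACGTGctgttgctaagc
Mnt (chr11:74830789-74830818, + strand): ccccacccaagcCACGTGtgcgcgcgcggt
Mlx (chr11:101087238-101087267, + strand): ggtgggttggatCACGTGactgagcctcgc
The motif's first base lies 3, 219, 123 and 40 bases before the start of Max, Mxd4, Mnt and Mlx. None of these 4 genes was called by limma (1, Mnt, had an unadjusted p under 0.05, and the unmoderated test called 1, Mlx). Their changes lay between −0.25 and 0.12, and 26.7% of all genes of at least median level were called. The windows of Mycn, Mxd1, Mxd3, Mxi1 and Mga hold no CACGTG.

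Of the 5 related genes, Bmyc and Mlxipl fell with miR-302. Bmyc, which encodes a short MYC family protein without the DNA-binding end, was at 9.74, 9.65 and 9.61 in control and at 9.24, 8.99 and 9.08 in miR-302 arrays, below all controls. It changed by −0.56 ± 0.09 (SE; 1.48-fold lower, adjusted p = 0.00801). A further row of Bmyc at a lower level changed by −0.14 and was not called (adjusted p = 0.353 where every row was tested), so its rows differ in size. Mlxipl, which encodes the MLX partner ChREBP, was at 7.25, 6.89 and 7.16 in control and at 6.50, 6.22 and 6.07 in miR-302 arrays. It changed by −0.84 ± 0.14 (SE; 1.79-fold lower, adjusted p = 0.0103), and both genes kept their call whichever array was left out, while the unmoderated test did not call Mlxipl (adjusted p = 0.059). One of its promoter windows holds the E-box, at 98 bases before that start, and the other does not. Of the 4 related genes with a matched window, 1 had CACGTG, against 8.09% of the genes in the promoter table. The windows of the called genes Bmyc and Mxd3 hold none. This window was picked for display because Mlxipl was called, and a link between motif and change was not tested.
Mlxipl (chr5:135089780-135089809, + strand): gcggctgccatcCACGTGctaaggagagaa

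The other 3 related genes were not called. Mlxip, which encodes MondoA, had a mean of 8.93 in both groups. Mycl, the third MYC paralogue, was at 4.50 to 5.25 over the 6 arrays, below the median level. Detection calls were not used, so whether this level is above background was not tested. Pvt1, the long noncoding RNA gene beside Myc, was at 6.73 to 6.78 in control and 6.74 to 6.95 in miR-302 arrays, and its change of 0.09 ± 0.08 (SE) was not called (adjusted p = 0.502) while that of Myc was.

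The genes whose products act with the network are given by list, beside the share of all genes called (7.18% higher and 9.25% lower) and the 26.7% called among genes of at least median level, where all measured genes of the next 4 lists lie. Of 10 measured MYC co-activator genes, such as the acetyltransferase scaffold gene Trrap, limma called none (1 had an unadjusted p under 0.05, and the unmoderated test called 2), and their median change was −0.08. Of 11 genes that act on the stability of MYC proteins, 2 were lower and none higher, with a median of −0.13, a share near that of all genes. Trim32, a ubiquitin ligase gene, fell from 7.83 ± 0.09 to 6.89 ± 0.15 (SD, n = 3; log2 change −0.94 ± 0.10 SE, adjusted p = 0.00238). Usp28, a deubiquitinase gene whose product counters the ligase FBXW7 on MYC, fell from 10.21 ± 0.05 to 9.68 ± 0.28 (adjusted p = 0.0456). That call was made in 1 of the 6 leave-one-out fits, the one without miR-302 replicate 1. In that fit 3 genes of the list were lower and 1 higher, where 24.3% of all genes were called. Without any 1 of the other arrays 1 was lower and none higher, where 7.79% to 9.36% of all genes were called.

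Of 8 measured genes of the SIN3 and histone deacetylase corepressor that MXD proteins and MNT recruit, 1 was higher and 2 were lower, with a median of −0.10, where 16.4% of all genes and 26.7% of those of at least median level were called. The scaffold gene Sin3b rose by 0.58 ± 0.12 (SE; adjusted p = 0.0227), with 9.22 to 9.39 in control arrays and 9.63 to 10.04 in miR-302 arrays, with replicate 1 the lowest. The deacetylase genes Hdac1 and Hdac2 changed by −0.32 ± 0.08 and −0.34 ± 0.07 (SE). Of the 6 leave-one-out fits, 1 called Sin3b, 1 called Hdac1 and 2 called Hdac2. Without miR-302 replicate 1, 2 were higher and 2 lower, where 24.3% of all genes were called. Without any 1 of the other arrays none was higher and 0 or 1 lower, where 7.79% to 9.36% of all genes were called. Of 10 genes of PRC1.6, the complex of MGA, MAX and L3MBTL2, 1 was higher and 2 were lower, with a median of −0.09, close to the 26.7%. E2f6, which encodes a DNA-binding subunit, rose from 8.29 ± 0.03 to 8.88 ± 0.14 (log2 change 0.59 ± 0.09 SE, adjusted p = 0.00714). Yaf2 and Pcgf6, which encode other subunits, changed by −0.45 ± 0.07 and −0.44 ± 0.08 (SE). E2f6 and Yaf2 kept their call in all 6 leave-one-out fits, and Pcgf6 in 3.

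Among genes known to be activated by MYC, the share called was near that of all genes. Of 32 measured, 1 was higher, 5 were lower and 26 were not called, with a median change of −0.05, where 7.18% of all genes were called higher and 9.25% lower, and 26.7% of genes of at least median level, as all 32 are, were called. With only the 11090 genes of at least median level tested, 1 target was higher and 8 were lower (38.7% of genes called); with array weights, 1 and 9 (25.3%); and with a trend and robust prior, 2 and 11 (20.7%). Odc1, which encodes the ornithine decarboxylase of polyamine synthesis, was at 10.55, 10.57 and 10.63 in control and at 10.95, 11.04 and 11.08 in miR-302 arrays, above all controls. It rose by 0.44 ± 0.07 (SE; 1.36-fold, adjusted p = 0.00873) and kept its call whichever array was left out. The ribosome biogenesis genes Ncl, Npm1 and Nop56 and the glycolysis gene Ldha, chosen as examples after their values were seen, changed by −0.05, 0.13, −0.15 and −0.23 and were not called. For Nop56 and Ldha all miR-302 arrays nevertheless lay below all controls. Of the 32 targets, 18 had groups that did not overlap, against 35.8% of all genes at any level. The unmoderated test called 7 of the 32, and 10.6% of all genes.

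Of the 5 activated targets that were lower, Ccnd2, which encodes cyclin D2 and is also a reported miR-302 family target, changed by −3.16 ± 0.13 (SE). The mitochondrial serine enzyme gene Shmt2 fell from 11.71 ± 0.06 to 11.27 ± 0.07 (SD, n = 3; adjusted p = 0.00955), and the telomerase gene Tert from 7.88 ± 0.07 to 7.56 ± 0.03 (adjusted p = 0.0245). The remaining lower genes were Cad and Shmt1, named because the count is small. Tert, Cad and Shmt1 were each called in 1 of the 6 leave-one-out fits, the one without miR-302 replicate 1. Without miR-302 replicate 1, 1 target was higher and 6 were lower, where 24.3% of all genes were called. Without any 1 of the other arrays 1 was higher and 2 were lower, where 7.79% to 9.36% of all genes were called. Promoter windows were matched for 26 of these targets. CACGTG was present for 8 of them, and limma called 0 of these 8 (2 had an unadjusted p under 0.05, and the unmoderated test called 0), with a median change of −0.10. Of the 18 without it, 1 was higher and 4 lower, with a median of −0.06.

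Genes known to be repressed by MYC had calls in both directions. Of 9 measured, 1 was higher, 2 were lower and 6 were not called, with a median of 0.03, where 7.18% of all genes were called higher and 9.25% lower. At or above the median level, where 26.7% of genes were called, lay 5 of the 9, with all the called genes among them. Cdkn2c, Gas1, Gata6 and Cebpa lay below it and were not called. Ndrg1, a stress-responsive differentiation gene, was at 7.81 to 7.88 in control and at 8.40, 9.52 and 9.52 in miR-302 replicates 1, 2 and 3. It rose by 1.30 ± 0.29 (SE; adjusted p = 0.0279) and by 1.67 without replicate 1, and without any 1 of the other arrays it was not called. Its relative Ndrg2 fell by 0.90 on the log2 scale (adjusted p = 0.00678), and Cdkn1b, which encodes the cell cycle inhibitor p27, fell by 0.55 (adjusted p = 0.00515). Without miR-302 replicate 1, 3 were higher and 2 lower, where 24.3% of all genes were called. Without any 1 of the other arrays none was higher and 2 were lower, where 7.79% to 9.36% of all genes were called.

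Of 8 genes known as targets of MLX with MondoA or ChREBP, 3 were lower, none was higher and 5 were not called, with a median of −0.25, where 9.25% of all genes were lower and 26.7% of those of at least median level, as 7 of the 8 are, were called. The arrestin-domain gene Arrdc3 was at 10.96 to 11.06 in control and 10.08 to 10.17 in miR-302 arrays and fell by 0.89 on the log2 scale (adjusted p = 0.000849). Hbp1, which encodes a transcription repressor, fell by 0.60 (adjusted p = 0.00927), and the fatty acid synthase gene Fasn by 0.43 (adjusted p = 0.0166), a call kept in 4 of the 6 leave-one-out fits. Txnip, the best known MondoA target, was at 11.59 to 11.63 in control and at 12.11, 11.74 and 11.71 in miR-302 replicates 1, 2 and 3, and was not called (adjusted p = 0.225). It was named after its value was seen.

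**Figure D4:**
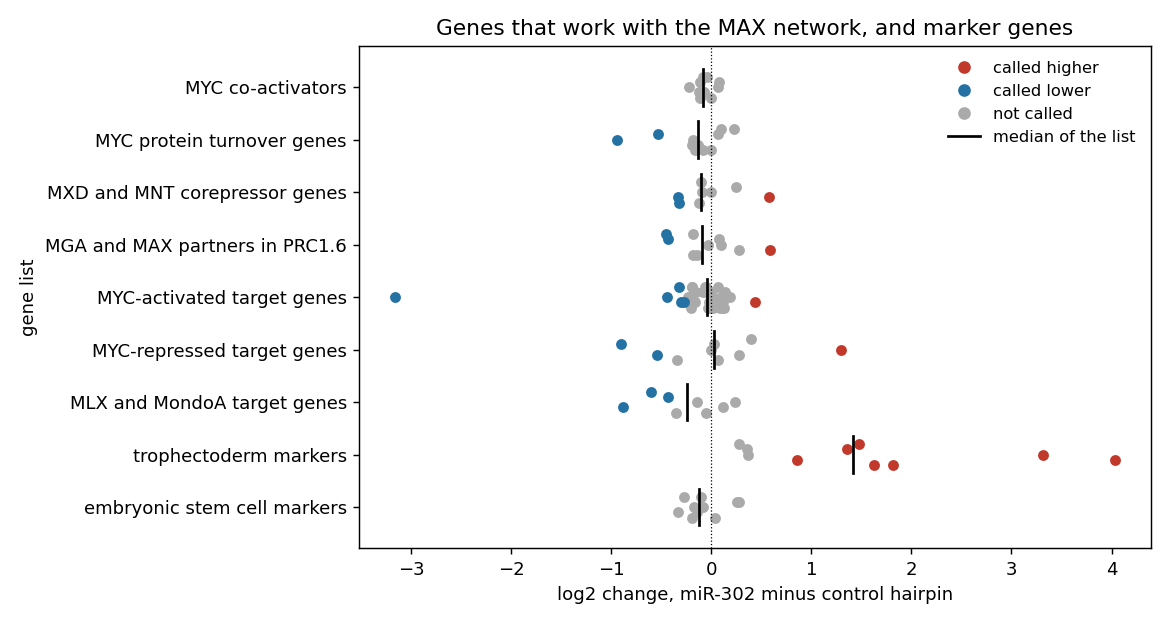
Log2 change (horizontal axis, miR-302 minus control hairpin) of the measured genes of 7 lists tied to the network and of the trophectoderm and ESC marker lists. Each point is a gene, coloured by call, black lines are list medians, and vertical scatter within a list has no meaning. The MYC-activated targets centre on −0.05 with Ccnd2 at −3.16, and the trophectoderm markers centre on 1.42.

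The genes whose 6 values were most like those of Myc were found among 10545 other genes at or above the median level, by the root mean square difference of values centred on each gene's mean. They were Lpp (0.0588 log2 units), a focal adhesion gene, Nrp2 (0.0645), a receptor for semaphorins and vascular growth factors, and Nefl (0.0743), a neurofilament gene. Like Myc, these had miR-302 replicate 1 below replicates 2 and 3, as in Lpp with 7.93, 8.48 and 8.71 against 6.85 to 7.13 in control. The genes most like Mycn were Stag3 (0.0222), Zfp944 (0.0229) and Asb8 (0.0241), which were highest in miR-302 replicate 1, as in Stag3 with 9.87 there against 9.57 to 9.66 on the other arrays. The likeness rests on 6 arrays in 2 groups and was used for description only.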

How the data were processed

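Biotin-labelled total RNA of 6 samples was hybridised to 1-colour arrays, per the labels. The authors deposited log2 values processed with RMA (background correction, quantile normalization, probe summary), per the submitters' processing notes; the log base is not stated and was taken as 2. The software is not given in the sources used here, nor is the build. Array medians were 5.60 to 5.62, and precision is limited by having 3 arrays a group. Of 33649 rows, 23521 name a single gene, 1814 several and 8314 none; the row with the highest mean stood for each of 22180 genes (21994 with their identifier in the RefSeq table of GRCm38.p6).

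Groups and replicate numbers came from the sample titles. All genes were fitted with limma 3.58.1 in R 4.3.3 (lmFit, eBayes, two-sided), with Benjamini-Hochberg adjustment over 22180 genes and a threshold of 0.05. The members and lists were chosen with earlier results of these data known. Of 140 list genes, 130 were measured. Genes named are the 10 members, the 5 related genes, up to 4 called genes with the largest change per pathway list, Dgcr8, and the 3 most like Myc and Mycn; exceptions are stated. Same-numbered arrays did not deviate together (correlations 0.02, 0.02 and 0.01), so numbers were not used as pairs. On data simulated for this comparison over 22180 genes, 45.2% of 62 genes changed 1.5-fold, 80% of 70 changed 2-fold and 98.5% of 68 changed 4-fold were recovered, with 9 false among 160 calls. No other gene was changed in the simulation, a far smaller share than the 16.4% called in the data. Both groups had the same SD for each gene, without an outlying array. The recovered shares are therefore not the power of this comparison. Figures were drawn with matplotlib 3.10.9.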

Additional observations from a re-analysis of the deposited data

How the results depend on the processing

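The fit was repeated with a replicate block, with each array left out, on genes of at least median level alone, with trend and robust options, with median-centred arrays, after quantile normalization, with a gene's rows averaged, with array weights, without moderation and with a minimum change of 1.5-fold. Fitting every row on its own was added after seeing the data. Over all genes, 3643 were called. The count was 2293 with the replicate block, 5621 with array weights, 2341 with the unmoderated test and 1561 with at least 1.5-fold; leaving out 1 array gave 1728 to 5395. Of the 10 network genes, 2 were called, 1 with at least 1.5-fold (Myc), and 1 to 3 with 1 array left out; the replicate block changed no call among them. Myc was higher and called under all 14 alternatives that refitted it, with changes from 1.28 to 1.61 and adjusted p up to 0.0348. Mxd3 changed by −0.43 to −0.36 with 1 array left out and lost its call in the fit without control hairpin replicate 1. Mxi1 changed by −0.41 to −0.10 and was called only in the fit without miR-302 replicate 1. Mnt (−0.25) passed when genes below the median level were left out, and Mlx (−0.11) with the unmoderated test, where Mlxipl (−0.84) did not (adjusted p = 0.059). The change of Mga, 0.02, was −0.01 with arrays centred on their medians. RMA equalises the arrays' distributions, which hides any shift common to all genes. Detection calls were not used here, so background is not separated from low expression.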
